A study of Homo sapiens with 17 samples.

Results

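The cytochrome P450 (CYP) and UDP-glucuronosyltransferase (UGT) genes are the main detoxification genes of liver and gut, and the binding sites of FOXA and SOX2 proteins near them were described here. The members were the 74 protein-coding genes in the RefSeq GRCh38.p14 table whose symbols follow the CYP pattern or begin with UGT1A or UGT2. They comprised 55 CYP, 9 UGT1A and 10 UGT2 genes, of 19970 protein-coding genes on chromosomes 1 to 22 and X. A peak was assigned to a gene when its summit, the position of strongest signal, lay inside the gene or within 20 kb of either end. Over the 8 peak lists, 225 of 208775 peaks met this rule. Genes whose windows touched were joined, which gave 51 loci, of which 39 held 1 gene and 12 were clusters of 2 genes or more.

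FOXA1, FOXA2 and FOXA3 are forkhead proteins that bind DNA in closed chromatin and are active early in the development of liver and gut. CYP enzymes oxidise drugs, sterols, fatty acids, steroids and vitamins, and UGT enzymes then attach glucuronic acid so that the product can leave in bile or urine. In liver, FOXA proteins act with HNF4A and C/EBP proteins at many of these genes. U2OS is an osteosarcoma line, derived from a bone tumour and not from a tissue where most of these genes are active.

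The data came from chromatin immunoprecipitation with sequencing (ChIP-seq), in which DNA bound by a Flag-tagged protein was recovered with a Flag antibody. All lines were stable U2OS lines carrying a doxycycline-inducible (Tet-on) construct, so the proteins were introduced on top of whatever U2OS itself makes. The 8 groups were FOXA1, FOXA2 and FOXA3 at full length, the same 3 proteins with the C-terminal domain (CTD) deleted, SOX2, and SOX2 fused to the FOXA2 CTD. Induction was with 500 ng per ml doxycycline over 4 days, according to the treatment labels. Each group had 2 biological replicates, and there was 1 input sample. The labels do not say whether a line was 1 clone. Protein levels were not analysed here, and a difference between groups cannot be told apart from a difference in the amount of protein.

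Each group had 1 combined list, kept from both replicates by the irreproducible discovery rate (IDR), the estimated chance that a peak is not shared by the replicates. With 1 list a group there was no test between groups, and intervals below cover counting error only. The lists held between 1375 (SOX2) and 53415 peaks (CTD-deleted FOXA2). Their weakest IDR ranged from 0.0100 for CTD-deleted FOXA3 to 0.920 for the fusion, so the lists differed in strictness as well as in length. The FOXA3 lists shared 4981 identical entries, and all 4 member peaks of full-length FOXA3 were among them. Below, a list means a combined list unless a first replicate, deposited on its own for SOX2 and the fusion, is named. The values given for full-length FOXA3 therefore repeat those of the CTD-deleted protein and are no second measurement. Read depth was unknown. Strength is given as −log10 p, once for each replicate in the order of the file, which carries no replicate number; "absent" means absent from a list and not a measured lack of binding. The lists differed in these values as a whole. The median of the weaker value over all peaks was 4.08 and 4.34 for full-length and CTD-deleted FOXA1, 2.24 and 2.96 for FOXA2, and 7.90 and 7.75 for FOXA3, so ranks within a list are given where lists are set side by side.

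The RefSeq promoter table (GRCh38.p14, from 250 bases before to 50 bases after a start) held 68 promoters of 54 member genes. Peaks overlapped 2, 0, 1 and 3 of the 68 in the full-length and CTD-deleted FOXA1 and the full-length and CTD-deleted FOXA2 lists, and none in the other lists. Of all 22011 promoters those 4 lists overlapped 7.37%, 1.67%, 6.71% and 5.37%. Only those of CYP51A1, CYP2U1 and UGT2B11 were overlapped by a peak, and they are shown whole, 5′ to 3′ on the strand of the gene, because they are the places where a peak met a start. Capitals mark forkhead letters on either strand: TGTTTAC, a usual core of forkhead sites, its common variant in many known sites, TGTTTGC, and a further variant that forkhead proteins also bind, TATTTAC.
CYP51A1 (chr7:92134428-92134727, minus strand): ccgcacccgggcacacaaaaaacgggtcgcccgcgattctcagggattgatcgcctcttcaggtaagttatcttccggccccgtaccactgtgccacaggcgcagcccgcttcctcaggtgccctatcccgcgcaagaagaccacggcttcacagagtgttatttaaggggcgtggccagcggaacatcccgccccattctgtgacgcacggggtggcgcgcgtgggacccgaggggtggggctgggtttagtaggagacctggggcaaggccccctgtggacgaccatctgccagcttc
CYP2U1 (chr4:107931299-107931598, plus strand): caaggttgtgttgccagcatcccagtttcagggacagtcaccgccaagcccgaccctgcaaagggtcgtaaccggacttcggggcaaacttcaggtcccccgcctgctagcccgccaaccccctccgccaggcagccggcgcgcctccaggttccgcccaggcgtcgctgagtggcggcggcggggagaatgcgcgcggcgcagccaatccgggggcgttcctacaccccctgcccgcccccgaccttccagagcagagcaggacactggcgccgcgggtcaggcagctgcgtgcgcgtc
UGT2B11 (chr4:69214699-69214998, minus strand): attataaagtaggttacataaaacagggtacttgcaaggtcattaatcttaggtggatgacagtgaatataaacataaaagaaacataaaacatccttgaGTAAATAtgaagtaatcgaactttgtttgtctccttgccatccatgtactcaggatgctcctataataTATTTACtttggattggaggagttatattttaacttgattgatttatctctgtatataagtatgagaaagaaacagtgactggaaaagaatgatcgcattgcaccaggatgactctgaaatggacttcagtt

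CYP51A1, the sterol 14-demethylase of cholesterol synthesis, had a promoter peak in 3 lists. The values were 4.99 and 6.34 for full-length FOXA1, 3.02 and 18.8 for full-length FOXA2, and 2.80 and 2.36 for CTD-deleted FOXA2. The 18.8 of 1 full-length FOXA2 replicate stood far above every other value at this promoter. CYP2U1, a fatty acid hydroxylase, had values of 3.23 and 9.61 for full-length FOXA1 and 2.80 and 3.96 for CTD-deleted FOXA2. UGT2B11 had values of 4.39 and 3.13 in the CTD-deleted FOXA2 list only. The promoters of CYP51A1 and CYP2U1 held 63.7% and 70.7% G and C and no forkhead letters, whereas UGT2B11 held 33.0% and 2 matches, starting 150 and 82 bases before its start.

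Forkhead letters were more frequent in member promoters than in promoters at large. They occurred in 15 of 68 member promoters (22.1%) and in 7.98% of all 22011 promoters. The median G and C content was 53.2% in member promoters and 62.3% in all, which was not matched in this comparison. Related genes among the 15, such as UGT2B10, UGT2B11 and UGT2B15, carried the same letters at nearly the same distance and were counted separately. Of those 15, 1 was overlapped by a peak, that of UGT2B11. Among all promoters with the letters, full-length and CTD-deleted FOXA1 overlapped 10.8% and 4.10%, and full-length and CTD-deleted FOXA2 10.5% and 13.0%. Of promoters without the letters these lists overlapped 7.08%, 1.46%, 6.38% and 4.70%. The other motifs searched were ACAATG, a core of SOX sites, in 4.41% of member and 8.17% of all promoters, and TGACTCA, the AP-1 site, in 2.94% and 4.02%. A match is a string of letters and no measured site.

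Some promoters that share forkhead letters and a low G and C content with that of UGT2B11 are shown for comparison. UGT2B10 and UGT2B15 are its close relatives, and CYP2C8 metabolises drugs such as paclitaxel; these 3 were picked after the values were seen, and none was overlapped by a peak.
UGT2B10 (chr4:68815744-68816043, plus strand): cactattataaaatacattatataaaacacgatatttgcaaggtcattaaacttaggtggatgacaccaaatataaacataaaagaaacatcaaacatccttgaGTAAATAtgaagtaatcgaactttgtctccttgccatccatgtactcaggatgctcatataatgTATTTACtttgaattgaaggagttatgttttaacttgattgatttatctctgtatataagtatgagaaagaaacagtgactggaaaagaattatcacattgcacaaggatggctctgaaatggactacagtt
UGT2B15 (chr4:68670603-68670902, minus strand): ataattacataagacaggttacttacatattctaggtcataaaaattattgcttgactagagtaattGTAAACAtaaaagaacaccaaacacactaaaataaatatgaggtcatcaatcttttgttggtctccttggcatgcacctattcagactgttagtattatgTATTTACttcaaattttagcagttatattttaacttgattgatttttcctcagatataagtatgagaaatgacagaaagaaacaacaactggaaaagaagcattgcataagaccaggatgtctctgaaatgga
CYP2C8 (chr10:95069448-95069747, minus strand): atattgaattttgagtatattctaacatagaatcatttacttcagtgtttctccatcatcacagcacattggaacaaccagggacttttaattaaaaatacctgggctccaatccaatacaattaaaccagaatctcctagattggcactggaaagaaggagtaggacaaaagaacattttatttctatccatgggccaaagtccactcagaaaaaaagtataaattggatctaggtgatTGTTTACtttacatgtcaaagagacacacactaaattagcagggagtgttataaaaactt

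UGT2B10 carried TATTTAC at the same distance as UGT2B11, 82 bases before the start, and UGT2B15 carried it at 83. The only peak assigned to UGT2B15 was a fusion peak 8546 bases before the start, with values of 4.95 and 2.57. UGT2B10 had 1 peak, of CTD-deleted FOXA1, 12111 bases past its start, with 3.53 and 4.99. Reads from such similar genes can map to more than one copy. The authors' treatment of those reads is not given in the sources used here, and its part in these counts was not tested.

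A smaller share of CYP and UGT genes than of protein-coding genes at large had a FOXA1 or FOXA2 peak nearby. Full-length FOXA1 had a peak at 25 of 74 member genes, 33.8% (Wilson 95% interval 24.1 to 45.1), against a background of 55.6% of all protein-coding genes. CTD-deleted FOXA1 had a peak at 34 genes, 45.9% (35.1 to 57.2), against 54.0%. Full-length FOXA2 reached 24 genes, 32.4% (22.9 to 43.7), against 59.5%. CTD-deleted FOXA2 reached 29 genes, 39.2% (28.9 to 50.6), against 61.1%. In these 4 lists the background lay above the interval for all but CTD-deleted FOXA1, whose interval held it. At an IDR of at most 0.05, a limit chosen after seeing the data, the counts in the same order were 13, 34, 1 and 14 genes, against 26.5%, 54.0%, 5.23% and 34.6% of all genes. CYP genes alone, without the UGT genes, gave 21, 27, 21 and 24 of 55 genes (38.2%, 49.1%, 38.2% and 43.6%). Members of a cluster share windows, so these intervals, which treat genes as independent, are too narrow.

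The FOXA3 and SOX2 lists reached few member genes. Each FOXA3 list had a peak at 5 member genes, 6.76%, against 16.2% of all genes for the full-length and 18.4% for the CTD-deleted protein. SOX2 had a peak at 0 of 74 genes, where 3 genes (the limit used for a count of 0) would be 4.05%, and the background was 0.556%. The fusion had a peak at 11 genes, 14.9% (8.51 to 24.7), against 17.9%. A SOX2 count of 0 was thus not distinguishable from its background at this list size.

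**Figure D1:**
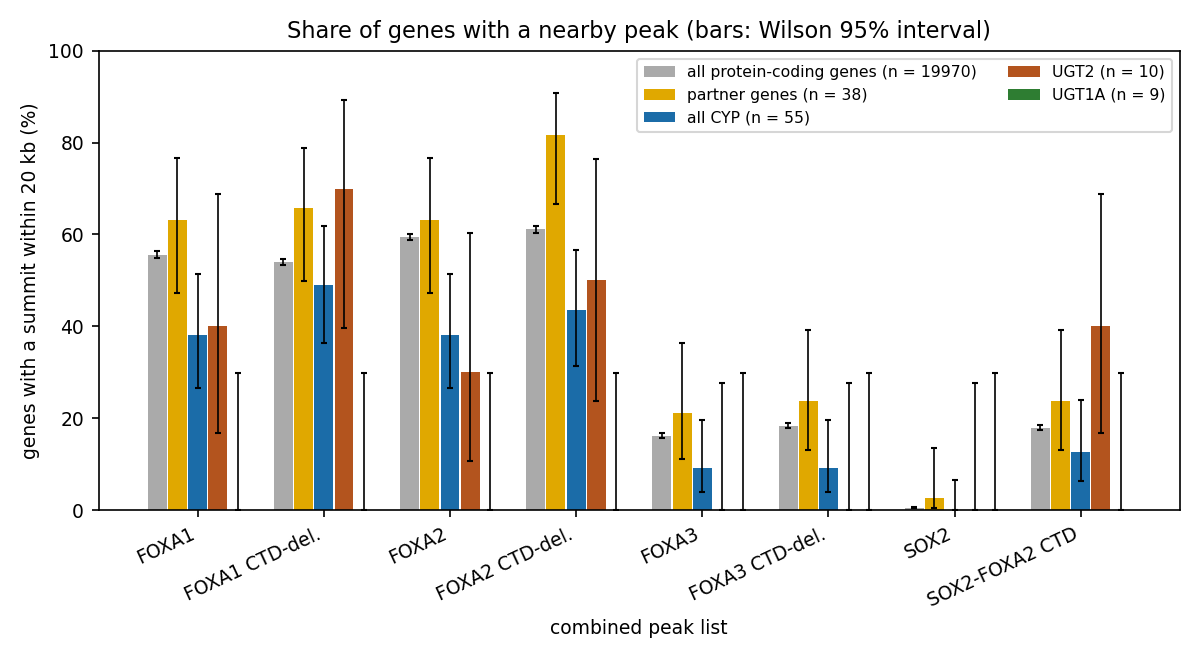
Percentage of genes with a summit within 20 kb (y axis) for each of the 8 combined lists (x axis), in all protein-coding genes, partner genes, CYP, UGT2 and UGT1A genes, with Wilson 95% intervals as error bars. UGT1A genes sit at 0 in every list, and CYP genes lie below all coding genes in the 4 FOXA1 and FOXA2 lists, at 38.2% to 49.1%.

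Gene length was similar in the 2 sets, with a median of 24.1 kb for members and 24.2 kb for all genes. Counted per length of window, full-length FOXA1 had 8.66 peaks per Mb near members and 13.7 per Mb near all coding genes, a ratio of 0.631 (95% interval 0.449 to 0.863). The ratio was 0.849 (0.655 to 1.08) for CTD-deleted FOXA1, 0.654 (0.483 to 0.867) for full-length and 0.622 (0.466 to 0.814) for CTD-deleted FOXA2. FOXA3 gave 0.446 (0.122 to 1.14) and 0.472 (0.153 to 1.10), and the fusion 1.08 (0.538 to 1.93). The density of FOXA1 and FOXA2 peaks near members was therefore below that near coding genes in 3 of 4 lists, beyond counting error. This changed with the settings: with both FOXA1 lists held to the stricter IDR, full-length FOXA1 gave 0.694 (0.370 to 1.19), and with a 50 kb window CTD-deleted FOXA1 gave 0.783 (0.633 to 0.957). Full-length FOXA2 gave 0.361 (0.00914 to 2.01) at an IDR of at most 0.05, a limit chosen after seeing the data.

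Peaks were spread unevenly over the genes. Of the 74 members, 30 (40.5%) had a peak in no list, against 21.3% of all coding genes, and 15 (20.3%) had one in all 4 FOXA1 and FOXA2 lists, against 36.3%. The 6 loci with most peaks held 104 of the 225, or 46.2%. These were CYP7B1 with 21 in a window of 252 kb, CYP39A1 with 20 in 143 kb, and CYP24A1 with 18 in 70.5 kb. The CYP4A11, CYP4X1, CYP4Z1 and CYP4A22 cluster had 19 in 261 kb. UGT2A1 and UGT2A2 had 15 in 105 kb, and CYP51A1 had 11 in 62.7 kb. The counts were not divided by length, and a long locus can rank high for its length alone. By position, 114 summits lay inside a member gene, 35 inside another coding gene only, and 76 outside coding genes. The gene table gives gene ends only, so exons and introns were not told apart.

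Of the 12 gene clusters, 5 had 0 peaks in every combined list: UGT1A, CYP2C18 with CYP2C19, CYP1A1 with CYP1A2, CYP2A6 with CYP2A7, and CYP2A13 with CYP2F1. In the order full-length and CTD-deleted FOXA1, then full-length and CTD-deleted FOXA2, the CYP4A11, CYP4X1, CYP4Z1 and CYP4A22 cluster had 3, 5, 3 and 6 peaks, and 1 in each FOXA3 list. UGT2A1 with UGT2A2 had 2, 4, 6 and 2, with 1 of the fusion. The cluster of CYP3A5, CYP3A7 and CYP3A4 had 1, 2, 0 and 1, with 1 of the fusion, and CYP4F2 with CYP4F11 had 0, 2, 2 and 1. The remaining clusters had at most 2 peaks over all lists, namely CYP4F8 with CYP4F3 and CYP4F12, CYP11B1 with CYP11B2, and CYP26C1 with CYP26A1. The 15 peaks of UGT2A1 and UGT2A2 fell at 9 sites, the 19 of the CYP4A11 cluster at 7, and the 5 of the CYP3A5 cluster at 5. Genes with a peak in at least 5 of the 6 FOXA lists were CYP4A11, CYP4X1, CYP27C1, CYP7A1 and CYP24A1. All but CYP4A11, which full-length FOXA2 lacked, had one in all 6, that is 5.41% of members against 12.6% of all coding genes.

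**Figure D2:**
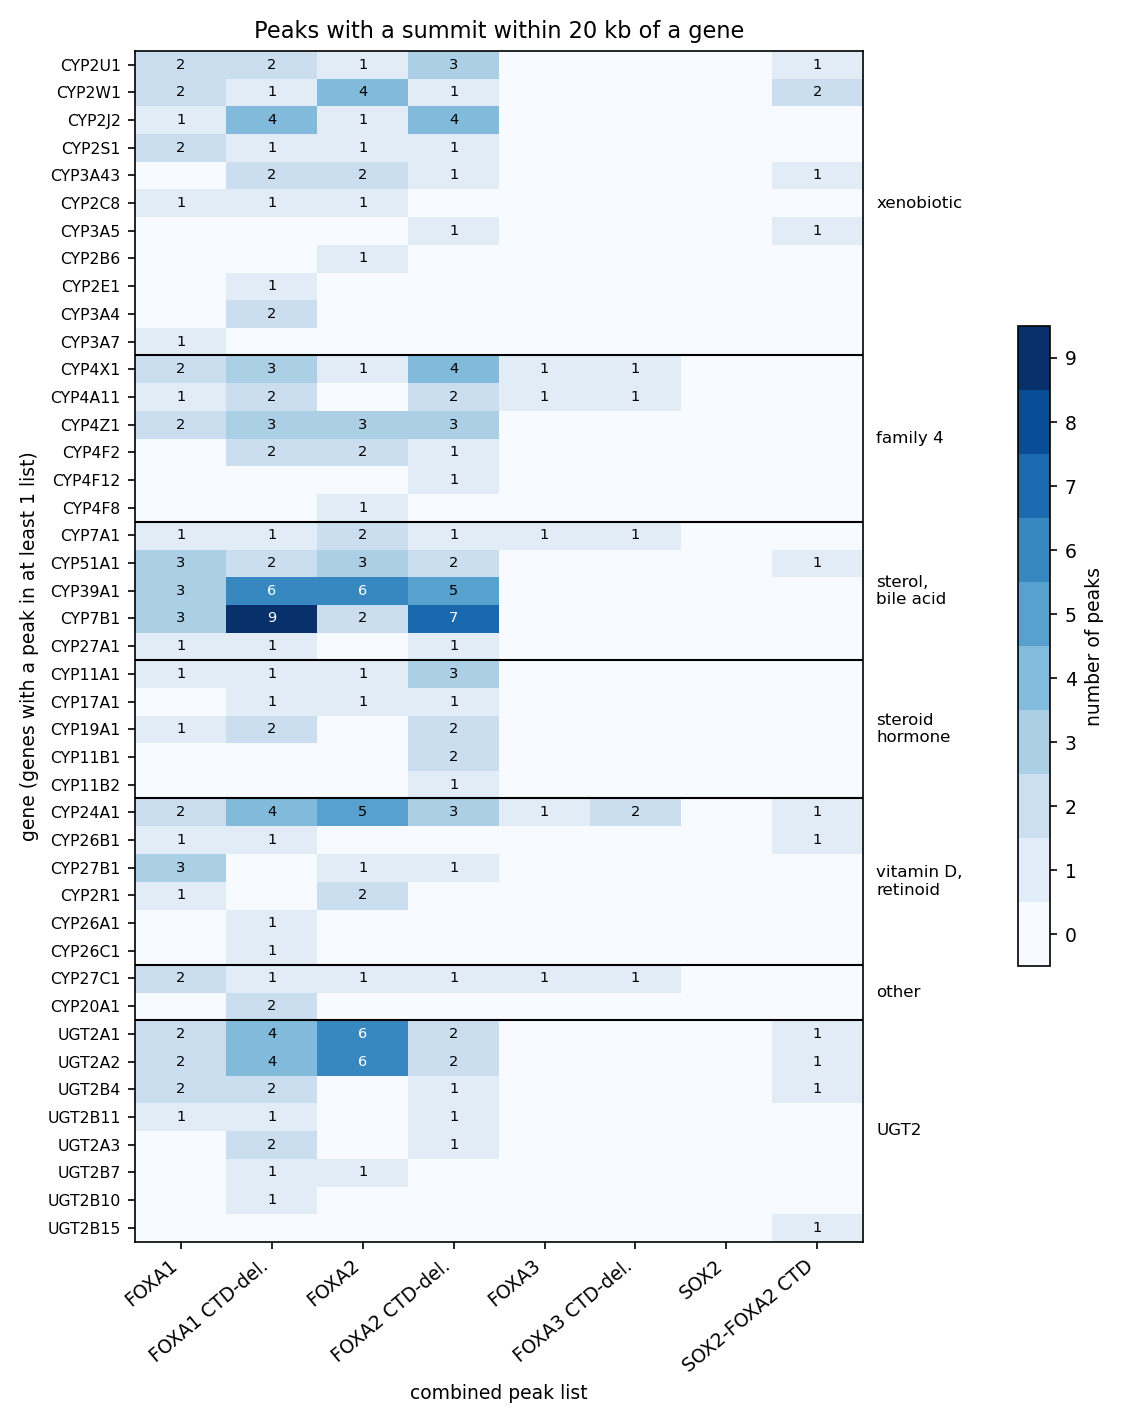
Number of peaks with a summit within 20 kb (colour and printed number) for 43 of the 44 member genes with a peak in at least 1 list (rows, grouped by role) in the 8 combined lists (columns). The SOX2 column is empty, and CYP7B1 with 9 peaks of CTD-deleted FOXA1 is the fullest cell.

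The 22 CYP genes of families 1 to 3, which oxidise drugs and other foreign compounds, were taken without CYP2R1, grouped here with the vitamin D genes. They had a peak at 6, 9, 7 and 6 genes in the full-length and CTD-deleted FOXA1 and the full-length and CTD-deleted FOXA2 lists. These were 27.3%, 40.9%, 31.8% and 27.3%, against 55.6%, 54.0%, 59.5% and 61.1% of all protein-coding genes. No peak of either FOXA3 list was near them. The best known genes of the group had few peaks or none. CYP1A1 and CYP1A2 (induced through the aryl hydrocarbon receptor), CYP1B1, CYP2A6, CYP2C19 and CYP2D6 had 0 in every combined list. The first replicate of the fusion had 2 peaks at CYP1A1 (4.07 and 1.72) and 1 at CYP2D6 (3.22). CYP2B6, a target of the xenobiotic receptor CAR, had a single full-length FOXA2 peak of 2.27 and 1.74, with the weaker of the pair below that list's median of 2.24.

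CYP3A4 metabolises many drugs in adult liver. Its peaks were both from CTD-deleted FOXA1, with 7.49 and 6.81 at a summit 11299 bases before the start (chr7:99795034-99795697), and with 2.44 and 6.33 inside the gene. No other combined list had a peak at CYP3A4, and the first replicate of the fusion had 2 (2.43 and 3.22). CYP3A7, the fetal form, had only a full-length FOXA1 peak (4.06 and 3.40) inside the gene, where CYP3A7-CYP3A51P and ZSCAN25 are also annotated. CYP3A5 had 1 CTD-deleted FOXA2 peak inside the gene (3.57 and 2.36) and 1 fusion peak inside ZSCAN25 (3.67 and 3.39).

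CYP3A43, a further gene of the family, had the strongest of the CTD-deleted FOXA1 member peaks that the full-length list lacked. At chr7:99844019-99844794, inside the gene, it measured 10.2 and 16.2. At the same site full-length FOXA2 had 4.71 and 2.34 and CTD-deleted FOXA2 had 5.86 and 8.87. The ranks were 2987 of 50539 for CTD-deleted FOXA1, 16698 of 45076 for full-length FOXA2 and 5854 of 53415 for CTD-deleted FOXA2.

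CYP2W1, an enzyme found mainly in fetal gut and in tumours, had the strongest peak near any member in the full-length FOXA1 list. The peak (chr7:1008483-1009384) ranked 29 of 37532, with 30.2 and 28.2. Its summit lay 19218 bases beyond the CYP2W1 end and inside another gene, CHLSN, so its assignment to CYP2W1 rests on the 20 kb window. CTD-deleted FOXA1 measured 13.8 and 16.0 there, full-length FOXA2 6.32 and 8.65, CTD-deleted FOXA2 6.76 and 7.40, and the fusion 2.52 and 4.49. In their own lists these ranked 1003 of 50539, 1655 of 45076, 4362 of 53415 and 6313 of 7895.

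CYP2U1 and CYP2J2, which act on arachidonic acid, had more peaks than most of the group. A site 8867 to 9044 bases before the CYP2U1 start was in all 4 FOXA1 and FOXA2 lists. Its values were 7.53 and 5.33 for full-length and 7.53 and 13.2 for CTD-deleted FOXA1, then 3.53 and 9.32 for full-length and 10.3 and 8.41 for CTD-deleted FOXA2. No list was above or below all the others in both replicate columns. CYP2J2 had 10 peaks, 4 each from CTD-deleted FOXA1 and CTD-deleted FOXA2 and 1 each from the full-length proteins. CYP2C8 had a site inside the gene in 3 lists, with 5.30 and 4.38 for full-length FOXA1, 3.53 and 4.08 for CTD-deleted FOXA1, and 2.27 and 3.25 for full-length FOXA2. CYP2E1, the ethanol-oxidising form, had 1 peak, from CTD-deleted FOXA1 (4.44 and 10.2). CYP2S1 had a site in all 4 lists, between 2.91 and 16.0, with its summit inside the neighbouring AXL gene.

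The 12 genes of CYP family 4 hydroxylate fatty acids and eicosanoids. In the same order of lists, 3, 4, 4 and 5 of them had a peak. By share, 25%, 33.3%, 33.3% and 41.7% had one, against 55.6%, 54.0%, 59.5% and 61.1% of all protein-coding genes. In each FOXA3 list 2 of them (16.7%) had a peak, against 16.2% (full length) and 18.4% (CTD-deleted) of all genes. Most of these peaks fell in the cluster of CYP4A11, CYP4X1, CYP4Z1 and CYP4A22. The strongest site there (chr1:47051594-47051950 in the full-length FOXA1 list) lay inside CYP4X1. Full-length FOXA1 measured 10.5 and 10.8, CTD-deleted FOXA1 9.35 and 18.5, full-length FOXA2 4.33 and 4.33, and CTD-deleted FOXA2 6.68 and 3.57. By rank of the weaker value the peak was 1232 of 37532 and 3837 of 50539 for FOXA1, and 4376 of 45076 and 18289 of 53415 for FOXA2, so CTD-deleted FOXA1 and full-length FOXA2 ranked alike here.

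A second CYP4X1 site lay between 923 and 959 bases before the outermost annotated start of the gene. It was the site of the FOXA3 peak, with 10.7 and 14.2. CTD-deleted FOXA1 measured 4.33 and 13.2 there and CTD-deleted FOXA2 5.31 and 4.79, and it was absent from both full-length lists of these proteins. CYP4Z1, a gene of breast tissue, had sites inside the gene in 3 lists each, one with CTD-deleted FOXA1 at 3.53 and 15.0. The other held the strongest full-length FOXA1 member peak that the CTD-deleted list lacked, with 6.95 and 5.97. The CYP4F genes had fewer peaks. The strongest full-length FOXA2 member peak that the CTD-deleted list lacked lay inside CYP4F2, with 4.71 and 7.00. CYP4F2, which oxidises vitamin K, had a site 1205 to 1247 bases past its end in the CTD-deleted FOXA1 list (3.53 and 10.8), the full-length FOXA2 list (3.84 and 1.74) and the CTD-deleted FOXA2 list (4.39 and 8.87).

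The 7 sterol and bile acid genes had a peak at 5, 5, 4 and 5 genes in the FOXA1 and FOXA2 lists. These were 71.4%, 71.4%, 57.1% and 71.4%, against 55.6%, 54.0%, 59.5% and 61.1% of all protein-coding genes. Every Wilson interval held the background. Per Mb of window the group had 15.5, 26.8, 18.4 and 22.6 peaks, against 13.7, 17, 16.3 and 18.9 near all coding genes. The density in this group was thus not below that near all coding genes. CYP7A1, the rate-limiting enzyme of bile acid synthesis, had a site inside the gene near its lower end in all 4 lists. The values were 4.99 and 5.46 for full-length FOXA1, 3.23 and 11.3 for CTD-deleted FOXA1, 3.84 and 4.08 for full-length FOXA2, and 5.27 and 3.13 for CTD-deleted FOXA2. No list was above or below all the others in both replicate columns here either. A different site, 13270 bases beyond the upper end, held the FOXA3 peak (9.68 and 10.1) and a weak full-length FOXA2 peak (1.92 and 2.96).

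CYP7B1, the oxysterol hydroxylase of the alternative bile acid pathway, had 3 peaks in the full-length and 9 in the CTD-deleted FOXA1 list, and 2 and 7 in those of FOXA2. One site inside the gene was in all 4 lists. It measured 8.44 and 3.57 for full-length and 4.44 and 12 for CTD-deleted FOXA1, then 3.84 and 5.99 for full-length and 4.39 and 12.3 for CTD-deleted FOXA2. Another, where CTD-deleted FOXA1 measured 9.74 and 15.7 and full-length FOXA1 5.30 and 5.46, was in neither FOXA2 list. CYP39A1, which hydroxylates 24-hydroxycholesterol, had 3, 6, 6 and 5 peaks, all inside the gene. Its strongest site (chr6:46560779-46561980) measured 8.60 and 14.4 for CTD-deleted FOXA1, 4.71 and 4.11 for full-length FOXA2 and 6.19 and 9.97 for CTD-deleted FOXA2, and was absent from the full-length FOXA1 list. CYP8B1, which makes cholic acid, and CYP46A1, the cholesterol hydroxylase of brain, had no peak in any combined list. The first replicate of the fusion had 1 at CYP8B1 (4.98).

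**Figure D3:**
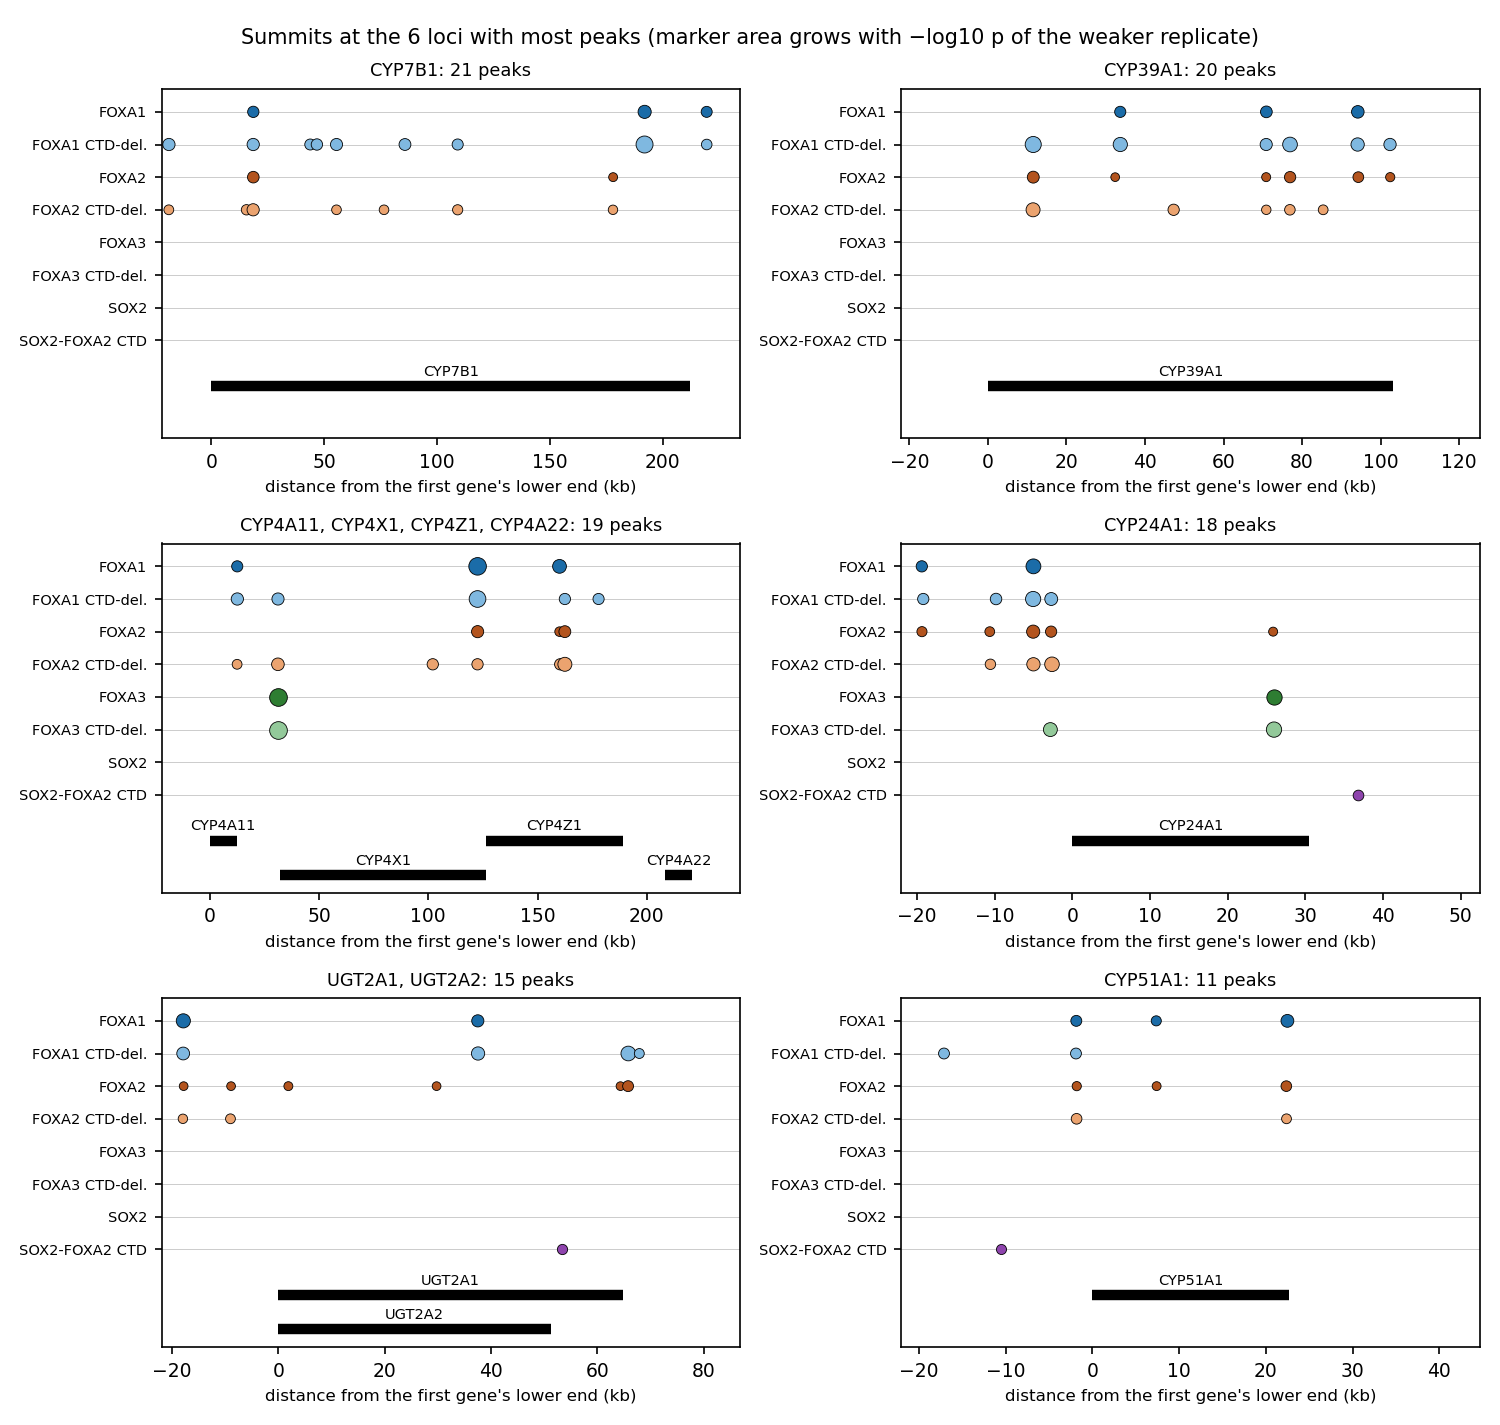
Summits of the 8 combined lists (rows) at the 6 loci with most peaks, by distance in kb from the lower end of the locus's first gene (x axis), with genes as black bars; marker area grows with the −log10 p of the weaker replicate. CYP7B1 has 9 summits of CTD-deleted FOXA1 and 7 of CTD-deleted FOXA2 against 3 and 2 of the full-length proteins.

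The 6 steroid hormone genes had a peak at 2, 3, 2 and 5 genes in the FOXA1 and FOXA2 lists, and at none in the other lists. By share that was 33.3%, 50%, 33.3% and 83.3%, against 55.6%, 54.0%, 59.5% and 61.1% of all protein-coding genes. Every Wilson interval in these 4 lists held the background. CYP19A1, the aromatase that makes oestrogens, had a site inside the gene with 7.14 and 4.62 for full-length FOXA1, 5.38 and 12.2 for CTD-deleted FOXA1 and 2.17 and 3.23 for CTD-deleted FOXA2. CYP11A1, which starts steroid synthesis from cholesterol, had a site inside the gene with 4.44 and 10.8 for CTD-deleted FOXA1, 3.84 and 1.74 for full-length FOXA2 and 6.19 and 3.96 for CTD-deleted FOXA2. CYP17A1, which makes androgens and cortisol precursors, had a site inside BORCS7, 18209 to 18270 bases before its start, at 2.09 to 7.38 in 3 lists. CYP11B1 and CYP11B2, the last enzymes of cortisol and aldosterone synthesis, had 2 CTD-deleted FOXA2 peaks only. These measured 3.14 and 3.61, and 2.29 and 2.61, with the weaker value above that list's median of 2.96 in the first and below it in the second. CYP21A2 had none.

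Of the 6 vitamin D and retinoid genes, CYP24A1 had most peaks. CYP24A1 inactivates vitamin D, and 18 peaks were assigned to it. A site about 5 kb beyond its lower end (5010 to 5047 bases) was in all 4 FOXA1 and FOXA2 lists, with 8.41 and 7.14 for full-length FOXA1, 7.53 and 13.5 for CTD-deleted FOXA1, 6.17 and 5.31 for full-length FOXA2 and 5.47 and 9.25 for CTD-deleted FOXA2. A second site, 2620 to 2829 bases beyond the same end, was in the CTD-deleted FOXA1 list (5.05 and 13.6), both FOXA2 lists (4.16 and 3.53 for full length, 6.83 and 10.1 for CTD-deleted) and the CTD-deleted FOXA3 list (6.11 and 15.2). This was the only member peak by which the FOXA3 lists differed. The FOXA3 peak present in both lists lay inside the gene, with 8.47 and 7.66, and full-length FOXA2 was weak there (2.32 and 1.78).

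CYP27B1 and CYP2R1, which activate vitamin D, had 5 and 3 peaks over all lists, in windows of 44.7 and 55 kb. The peak 10264 bases from CYP27B1 in the full-length FOXA2 list measured 2.27 in one replicate and 31.4 in the other, the widest gap among member peaks of that list, and its summit lay inside CDK4. CYP26B1, which clears retinoic acid, had a site 15236 and 15251 bases before its start with 5.30 and 8.66 for full-length and 2.69 and 4.37 for CTD-deleted FOXA1. CYP26A1 and CYP26C1 shared 1 CTD-deleted FOXA1 peak (3.21 and 6.81), inside EXOC6.

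CYP27C1, a retinoid desaturase of skin, held the 1 site among 122 that was in all 6 FOXA lists (0.820%, against 1.74% of all sites). Sites here are peaks of any list merged where they overlap. Its summit lay 6521 to 6742 bases before the start (chr2:127226369-127227254 in the FOXA3 lists). The values were 8.44 and 16.0 for full-length and 4.44 and 8.46 for CTD-deleted FOXA1, 3.83 and 1.78 for full-length and 8.14 and 25.1 for CTD-deleted FOXA2, and 20.5 and 31.4 for FOXA3. The peak ranked 92 of 6130 in the full-length and 159 of 6813 in the CTD-deleted FOXA3 list. In the FOXA1 and FOXA2 lists it ranked 2698 of 37532, 24379 of 50539, 28201 of 45076 and 2766 of 53415. CYP20A1, whose substrate is not known, had 2 CTD-deleted FOXA1 peaks.

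The 9 UGT1A genes, which glucuronidate bilirubin and many drugs, share 1 locus and had no peak in any combined list. The first replicate of the fusion had 3 peaks there (5.94, 3.22 and 3.01), at 7 of the 9 genes. As they share most of their sequence window, this is 1 observation and not 9. The 10 UGT2 genes conjugate steroids, bile acids and odorants. In the FOXA1 and FOXA2 lists 4, 7, 3 and 5 of them had a peak, and 4 in the fusion list. The shares were 40%, 70%, 30% and 50%, against 55.6%, 54.0%, 59.5% and 61.1% of all protein-coding genes. For the fusion the share was 40% (16.8 to 68.7), against 17.9%. UGT2A1 and UGT2A2, which overlap and share peaks, held 15. A site 17847 to 17988 bases beyond their shared end was in all 4 lists, with 6.95 and 6.34 for full-length FOXA1, 4.96 and 7.83 for CTD-deleted FOXA1, 1.59 and 1.72 for full-length FOXA2 and 2.09 and 2.81 for CTD-deleted FOXA2. Its ranks were 6167 of 37532, 19269 of 50539, 36161 of 45076 and 51983 of 53415 in the same order. Another, 1005 bases before the UGT2A1 start for CTD-deleted FOXA1 (6.95 and 6.95) and 962 for full-length FOXA2 (3.84 and 3.23), was absent from the other lists. UGT2B7, the main morphine conjugating form, had 1 CTD-deleted FOXA1 peak (2.87 and 9.20) and 1 full-length FOXA2 peak (2.27 and 1.74). UGT2B4, which acts on bile acids, had 6 peaks. UGT2B17 and UGT2B28 had none.

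Deleting the CTD went with more peaks near members for FOXA1, to a degree that followed the list as a whole. CTD-deleted FOXA1 had 65 member peaks and full-length FOXA1 39, a ratio of 1.67 (1.12 to 2.47), and the ratio over all peaks was 1.35. The lists were cut at different IDR limits. At the stricter of the 2, full-length FOXA1 kept 13 member peaks, the ratio was 5.00 (2.78 to 8.99) and that over all peaks 4.38. At that limit full-length FOXA1 had a peak at 13 member genes, 17.6%, against 26.5% of all genes. The FOXA2 lists held 53 and 48 member peaks, a ratio of 1.10 (0.749 to 1.63), against 1.18 over all peaks. At the stricter limit 32 full-length FOXA2 peaks remained, the ratio was 1.66 (1.07 to 2.56), and that over all peaks 1.70. Full-length FOXA2 then had a peak at 17 genes, 23%, against 48.4%. For both proteins the interval of the members' ratio held the value over all peaks. With equal numbers of the strongest peaks of each pair, the gene counts hardly differed. Full-length and CTD-deleted FOXA1 then had a peak at 25 and 26 member genes, and full-length and CTD-deleted FOXA2 at 24 and 24.

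The 2 forms of a protein shared about as many member peaks as peaks at large. Of full-length FOXA1 member peaks, 24 of 39 (61.5%) overlapped a CTD-deleted peak, against 56.0% of all peaks, and of CTD-deleted FOXA1 member peaks 24 of 65 (36.9%), against 41.7%. For FOXA2 the shares were 25 of 48 (52.1%, against 51.3%) and 25 of 53 (47.2%, against 43.2%). By gene, FOXA1 had 22 members in both lists, 3 in the full-length list only (CYP27B1, CYP2R1 and CYP3A7) and 12 in the CTD-deleted list only. Over all coding genes the counts were 8657, 2452 and 2129, so the list with more genes of its own was the full-length one. Those 12 included CYP17A1, CYP20A1, CYP2E1, CYP3A4, CYP3A43, UGT2A3, UGT2B10 and UGT2B7. FOXA2 had 19 in both, 5 in the full-length list only and 10 in the CTD-deleted list only, against 9817, 2056 and 2384 over all coding genes. These lists were cut at different IDR limits.

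Many member sites were held by only one of FOXA1 and FOXA2. Of the 122 sites, 44 (36.1%) were in lists of both proteins, 36 (29.5%) in FOXA1 lists and no other, and 30 (24.6%) in FOXA2 lists and no other. Over all sites these shares were 33.9%, 25.6% and 32.8%. A total of 11 sites (9.02%) were in all 4 lists, against 8.71%, and 67 (54.9%) in 1 list, against 54.4%. Each of these member shares had an interval that held the share over all sites.

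**Figure D4:**
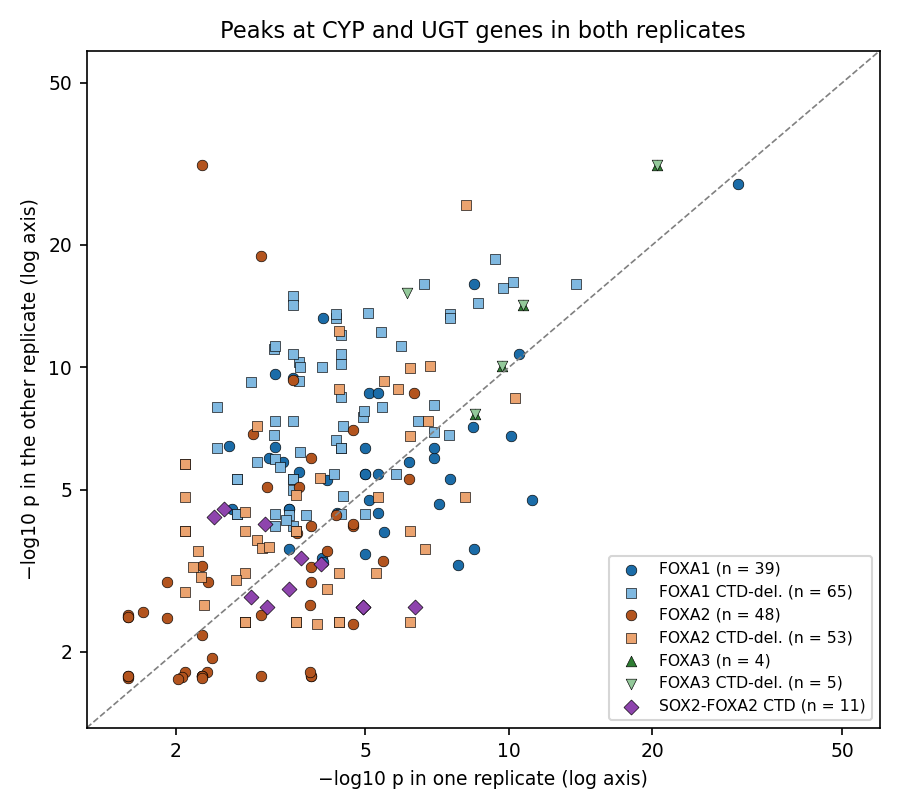
−log10 p of each of the 225 member peaks in one replicate (x axis, first file column) and in the other (y axis, second column), both on log axes, by list; the dashed line marks equal values. In the CTD-deleted FOXA1 list 60 of 65 peaks lie above the line.

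Replicates agreed unevenly. In the CTD-deleted FOXA1 list the second value was higher at 60 of 65 member peaks, and at 92.5% of all its peaks, so the high second values given above for this protein are shared with the list at large. In the full-length FOXA1 list it was higher at 22 of 39, against 51.15% of all its peaks. In the full-length FOXA2 list it was higher at 22 of 48, a smaller share than the 60.4% of all its peaks. In the CTD-deleted FOXA2 list it was higher at 31 of 53, against 49.9%. The median of the weaker value at member peaks was 4.35 for full-length FOXA1 (4.08 over all its peaks), 4.30 for CTD-deleted FOXA1 (4.34), 2.24 for full-length FOXA2 (2.24) and 2.80 for CTD-deleted FOXA2 (2.96). For FOXA3 it was 9.68 in the CTD-deleted list (7.75), over 5 peaks. Of the member peaks, 22 of 39, 29 of 65, 24 of 48 and 24 of 53 in the FOXA1 and FOXA2 lists were above the median of their list.

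The fusion of SOX2 to the FOXA2 CTD had 11 member peaks and SOX2 alone had 0. With no SOX2 peak near a member, an overlap between the 2 lists could not be measured there. The fusion peaks lay at CYP24A1, CYP26B1, CYP2U1, CYP2W1, CYP3A43, CYP3A5, CYP51A1, the UGT2A1 and UGT2A2 pair, UGT2B15 and UGT2B4. Of the 11, 10 were at sites of no other list, and the exception was the CYP2W1 site inside CHLSN. Over the whole genome 4713 sites were in the fusion list only, beside 7844 fusion peaks on chromosomes 1 to 22 and X. Taken over the sites of all lists, fusion-only sites were 8.20% of the 122 member sites and 4.34% of all sites. The values were low, between 2.41 and 6.34 in the first and between 2.57 and 4.49 in the second column. All 11 peaks had a high IDR, between 0.656 and 0.875, in a list that reached 0.920. Taking only the lists deposited for a first replicate, SOX2 had a peak at 9 member genes, 12.2%, against 22.1% of all genes, and the fusion at 38, 51.4%, against 51.4%. At the CYP2U1 site before the start, the first replicates of SOX2 and of the fusion measured 3.62 and 4.33, on a site that was in all 4 FOXA1 and FOXA2 lists.

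A set of 38 partner genes had peaks at a higher share than the member CYP and UGT genes. Most were electron donors, conjugating enzymes, transporters and the transcription factors of the pathway. The set also held PTGIS and TBXAS1, CYP enzymes whose symbols do not follow the CYP pattern. UGT3A1, UGT3A2 and UGT8, UGT genes outside the UGT1A and UGT2 rule, were in it too. Of the 38 genes, 24, 25, 24 and 31 had a peak in the full-length and CTD-deleted FOXA1 and the full-length and CTD-deleted FOXA2 lists. These were 63.2%, 65.8%, 63.2% and 81.6%, with Wilson intervals that held the background in all but CTD-deleted FOXA2 (66.6 to 90.8), but the genes were longer, with a median of 37.7 kb. FOXA3 had a peak at 8 and 9, SOX2 at 1 and the fusion at 9. HNF4A, a liver nuclear receptor, had 7, 4, 6 and 6 peaks, and ABCB1, the drug exporter, 3, 12, 4 and 9. NR1I2, the xenobiotic receptor PXR, had 4, 1, 1 and 1, while NR1I3, the receptor CAR, had none in any list. POR, which supplies electrons to CYP enzymes of the endoplasmic reticulum, had 1, 0, 4 and 1.

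The window of 20 kb decided some members. Just inside it, a UGT2B4 site in both FOXA1 lists lay at 19561 and 19569 bases, with a weaker value of 4.49 and 5.86. Just outside, a CTD-deleted FOXA2 peak lay 20035 bases from CYP51A1 (2.36) and a CTD-deleted FOXA1 peak 20881 bases from CYP24A1 (4.09). Between 15 and 20 kb from a member gene lay 34 peaks, and between 20 and 25 kb 19.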

How the data were processed

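ChIP-seq was performed on 17 U2OS samples, of which 8 groups of 2 replicates carried a Flag-tagged protein and 1 was input. The authors deposited 8 combined peak lists and single-replicate lists for SOX2 and the fusion. Per the submitters' processing notes, the build was hg38, and FastQC 0.10.1, Trim Galore, Bowtie2 2.4.4, SAMtools 0.1.18, MACS2 and deepTools 2.4.1 were used, with no role or order given, and the aligner settings and IDR threshold are not given in the sources used here. In the deposited lists the score is a rescaled IDR, and the authors' −log10 p values stand once per replicate. The deposited single-replicate lists give a fold enrichment (a ratio) and a −log10 p per peak. Summits were computed from the deposited start and offset.

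Members and lists were chosen with earlier results of these data known. A gene was called when a summit lay within 20 kb, compared with all protein-coding genes in RefSeq GRCh38.p14. Peaks overlapped when they shared 1 bp. Counting was in Python 3.11.15 with pandas 2.3.3 and SciPy 1.17.1 (Wilson and exact 95% intervals, counting error only), tested on simulated peaks. By rule, the text names every cluster, the 2 strongest member peaks of a list, the strongest that the other form lacked, genes in at least 5 FOXA lists and bound promoters; other genes and sites, described by role, were chosen after their values were seen. The values of 1 gene are not reported here, though it is in the counts. The cell type could not be checked from peaks. Read depth is unknown. Alternatives were windows of 10 and 50 kb, stricter IDR limits, equal peak numbers and other overlap rules.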

Additional observations from a re-analysis of the deposited data

How the results depend on the processing

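Of 97 values recomputed for 22 results, 78 stayed within the range set for stability and 19 moved, and none reversed. Some of the 78 could not move. The stricter limit leaves the stricter list of a pair as it was, and equal peak numbers leave the shorter list as it was. For FOXA1 the pair's stricter limit and an IDR of at most 0.05 gave the same values, which were counted at both. The 78 are therefore no full measure of stability. Member genes with a full-length FOXA1 peak fell to 13 at the pair's stricter IDR limit. An IDR of at most 0.05, chosen after seeing the data, gave 13 for full-length FOXA1, 1 for full-length FOXA2 (density ratio 0.361, 95% interval 0.00914 to 2.01) and 14 for CTD-deleted FOXA2, as fewer peaks were left. Both FOXA3 lists gave 3 genes with a 10 kb and 9 with a 50 kb window, and full-length FOXA3 gave 0 genes and a density ratio of 0 without the entries shared with the CTD-deleted list. The first replicate alone gave 9 genes for SOX2 and 38 for the fusion. The fusion gave 0 genes at the stricter limit (density ratio 0) and 0 with equal peak numbers. The share of CTD-deleted peaks overlapping the full-length list fell to 13.8% for FOXA1 and 34.0% for FOXA2 at the stricter limit, and to 0% for FOXA3 without shared entries. No paired analysis was possible because each group had 1 combined list. For the 6 FOXA groups no replicate could be left out for the same reason, and for SOX2 and the fusion the first-replicate lists stand in for this. The interval of the density ratio came to include 1 for full-length FOXA1 at the stricter limit, 0.694 (0.370 to 1.19), and to exclude it for CTD-deleted FOXA1 with a 50 kb window, 0.783 (0.633 to 0.957). It also came to include 1 for full-length FOXA2 at an IDR of at most 0.05. For SOX2 the first-replicate list gave 0.522 (0.25 to 0.96), an interval that excluded 1, where the combined list gave 0 (0 to 16.2). Peak counts are limited by list strictness and unknown depth.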
